A study of Mus musculus with 17 samples.

Results

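The 44 genes described here carry or answer the interferon signal, and they were chosen by symbol from the 22253 genes of the count table, where all 44 were found. They comprised 4 receptor subunits, 8 transducers (kinases, transcription factors and a feedback inhibitor) and 32 response genes, which are genes that interferon induces in many cell types. The rule itself used no measured value. The counts came from retinal pigment epithelium (RPE), the pigmented cell layer behind the photoreceptors, of Serpine3GFP/+ mice at 2 months of age. In this line 1 allele of Serpine3 carries a GFP reporter, so GFP marks cells that use the gene, and the control cells carried the same allele. Peripheral cells with GFP (GFP+, 6 libraries), peripheral cells without it (ctrl periphery, 5 libraries) and central cells without it (ctrl center, 6 libraries) were picked by hand, and each SMART-Seq library came from a pool that the labels put at 10 to 15 cells, while the study's methods give a lower range. Mice 1, 2, 4, 5 and 7 gave a library of every group, mouse 3 only GFP+ and mouse 6 only ctrl center, and mouse 1 was a pool of 2 animals. The labels name no interferon treatment and no infection.

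Interferons are secreted proteins by which cells warn each other of infection. Type I interferons bind the receptor pair IFNAR1 and IFNAR2, and interferon gamma binds IFNGR1 and IFNGR2. The receptors activate JAK kinases, which phosphorylate STAT proteins. STAT2 and IRF9 are parts of a complex that binds a DNA element called ISRE in front of the response genes. IRF3 and IRF7 act earlier, where they switch on the interferon genes once RNA sensors such as RIG-I (Ddx58) and MDA5 (Ifih1) have met viral RNA. Some response genes are also kept at a low constant level in healthy tissue, whereas others are nearly silent until interferon arrives.

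The ISRE stretches of 5 genes that the libraries listed near 0 and of 5 genes they held are printed here, because the same letters stood in front of both kinds. Sequences are RefSeq promoter windows of GRCm38.p6, the build that the submitters' processing notes name, and each window ran from 250 bases before to 50 bases after a gene's start. A match was GAAA, any 2 bases and GAAA again, or TTTC, any 2 bases and TTTC where the element lay on the other strand, and capitals mark it. The first 5 sequences belong to genes at or under 3 counts in at least 16 of the 17 libraries.
Isg15, chr4:156200860-156200911, minus strand: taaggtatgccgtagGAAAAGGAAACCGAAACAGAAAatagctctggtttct
Oas1a, chr5:120907515-120907560, minus strand: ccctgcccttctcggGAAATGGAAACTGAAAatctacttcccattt
Rsad2, chr12:26456548-26456587, minus strand: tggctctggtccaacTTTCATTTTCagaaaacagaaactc
Gbp2, chr3:142620589-142620628, plus strand: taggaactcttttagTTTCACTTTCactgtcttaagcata
Cxcl10, chr5:92349078-92349117, minus strand: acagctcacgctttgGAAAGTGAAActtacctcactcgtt
The next 5 belong to genes over 3 counts in at least 15 libraries, Stat2 being a transducer and the others response genes.
Bst2, chr8:71537572-71537617, minus strand: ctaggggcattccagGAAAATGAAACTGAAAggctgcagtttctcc
Gbp3, chr3:142559984-142560029, plus strand: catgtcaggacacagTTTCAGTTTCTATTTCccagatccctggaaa
Ifit3, chr19:34583358-34583397, plus strand: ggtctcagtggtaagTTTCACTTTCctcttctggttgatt
Ifitm2, chr7:140955983-140956022, minus strand: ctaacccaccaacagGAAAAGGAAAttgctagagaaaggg
Stat2, chr10:128270261-128270300, plus strand: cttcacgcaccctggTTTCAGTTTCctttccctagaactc
RefSeq windows matched 37 of the 44 genes. The motif stood in 15 of 25 response genes (60.0%) and in 2 of 12 receptors and transducers (16.7%, Stat2 and Socs1). It stood in 3.99% of all 27025 genes with a window and in 3.44% of all 32851 windows. Isg15 held 3 matches that ran into each other. Among response genes with a window, it stood in 9 of 14 that were over 3 counts in at least 9 libraries and in 4 of 6 that were over 3 counts in none. The letters thus stood in the windows of both kinds. In Ddx58, Eif2ak2, Ifih1 and Ifitm3 they lay after the gene's start and not in front of it. GAS is the element of the interferon gamma pathway (TTC, any 3 bases, then GAA, which reads the same on both strands). It stood in 11 of the 37 genes (29.7%) against 9.55% of all genes with a window. These matches describe letters and not bound sites.

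Depth and library quality touch every value below. Total counts ran from 9896118 to 22467079 per library. Mitochondrial genes took 0.710 to 17.2% of the counts in GFP+, 12.5 to 30.4% in ctrl periphery and 13.7 to 47.3% in ctrl center, and 5392 to 10543 genes reached 10 counts. Serpine3 lay between 6.20 and 22.4 CPM (read counts relative to library size, with TMM scaling) in GFP+ and at 0.279 or under in all control libraries. The RPE genes Rpe65, Rlbp1, Lrat, Rdh5, Ttr, Otx2 and Mitf were present in all 17 libraries. Of the same list, Pmel was over 3 counts in 7 libraries and Tyrp1 in 14. In GFP+, ctrl periphery and ctrl center the median of Pmel was 13.3, 0.144 and 0 CPM. That of Tyrp1 was 183.6, 19.2 and 0.462 CPM. Best1, an RPE chloride channel, was at or under 3 counts in every library, so that a gene listed near 0 here is not shown to be absent from the cells. Of 10 macrophage and microglia genes 7, among them C1qa, Cx3cr1 and Aif1, were at or under 3 counts in all libraries. The summed level of that list was 38.1 to 110.5 CPM in GFP+, 105.2 to 146.5 in ctrl periphery and 68.4 to 116.1 in ctrl center, nearly all of it from Csf1r. All 8 T cell and NK cell genes were over 3 counts in fewer than 9 libraries, with a summed level of at most 19.5 CPM. Of 8 endothelium, 7 stroma and 8 photoreceptor genes, 1, 2 and 1 were over 3 counts in at least 9 libraries. These were Plvap (11 libraries), Col1a1 (12), Pdgfrb (9) and Gnat1 (17). The summed levels of the 3 lists were at most 26, 10.6 and 30.8 CPM. In such pools a lower share of cells that use a gene and less RNA per cell cannot be told apart.

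The interferons themselves were not read. The 20 interferon genes of the table together had 17 counts over all 17 libraries, no single value was over 3, and the gene of interferon gamma was listed at 0 throughout. Interferon transcripts were thus not detectable at this depth.

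The genes ranged from present in all RPE libraries to at or near 0 in all of them, with most in between. Levels between genes are compared per exon length, as a length-scaled level (counts per exon length, scaled to the same sum in every library). Of the 32 response genes, 4 were over 3 counts in all 17 libraries, 11 in 9 to 16, 10 in 1 to 8 and 7 in none. Of the 12 receptors and transducers, 3 were over 3 counts in all libraries, 5 in 9 to 16, 4 in 1 to 8 and 0 in none. By mean length-scaled level over all libraries Ifitm2 (628) led, ahead of Ifi27 (253), Bst2 (110.1), Ifit3 (102), Ifitm3 (45.8) and Ifnar2 (31.1), the highest receptor. The 7 genes at or under 3 counts everywhere were Isg20, Oasl2, Oas1a, Mx1, Rsad2, Gbp2 and Cxcl10, which encode an RNA exonuclease, members of the oligoadenylate synthetase family, antiviral effectors, a GTPase and a chemokine. Oas1a shares 57.6% of its 50-base words with the gene models Oas1g and Oas1b. Its count is uncertain to that extent. Isg15, the ubiquitin-like protein that is joined to other proteins after interferon, was over 3 counts in 1 library, the ctrl periphery library of mouse 2, with 6 counts. Ifi44 was likewise over 3 counts in 1 library, as was Oas2, and Oas3 was in 2. In the heat map the top rows of the response class are bright and the lowest ones dark in all 3 groups, and many rows between them, such as Usp18, Parp9 and Ifih1, switch between 0 and clear signal among libraries of 1 group.

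**Figure D1:**
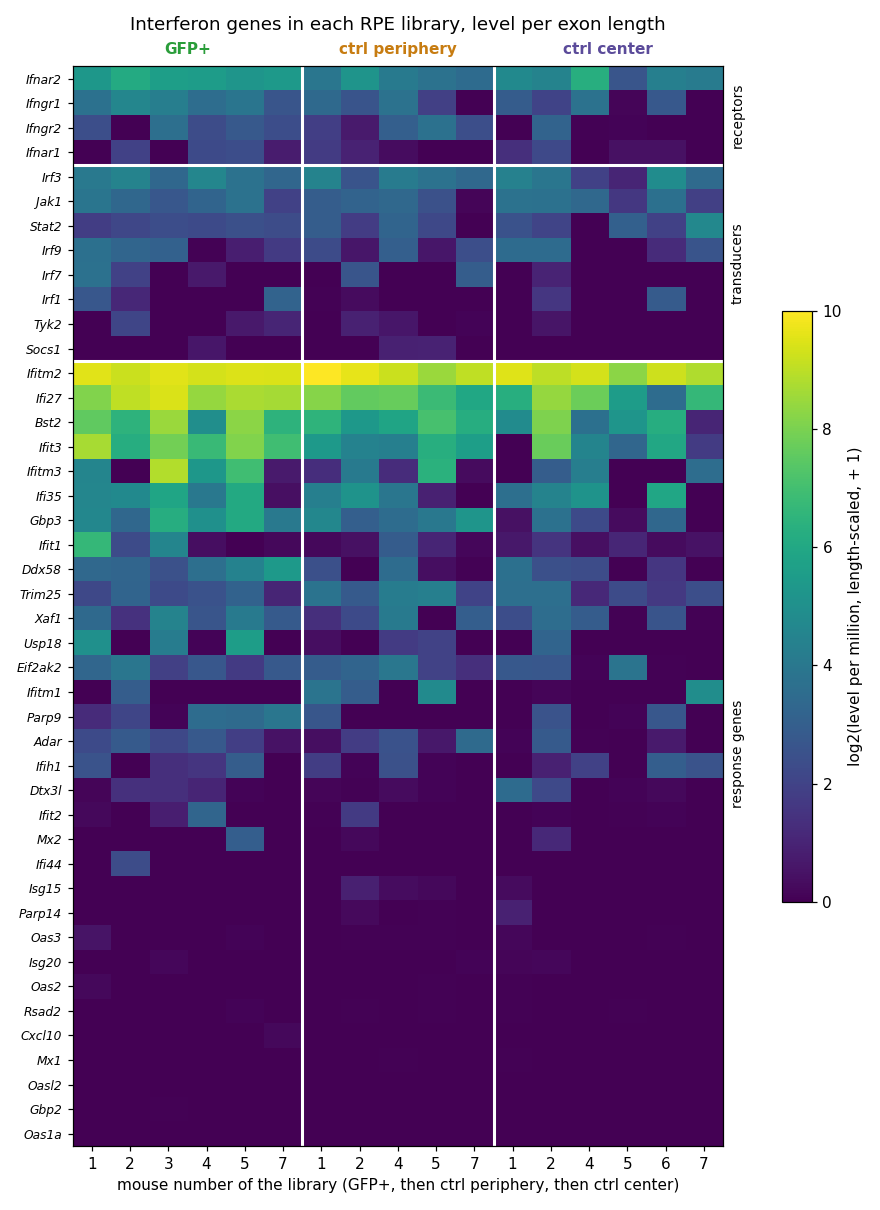
Length-scaled level of the 44 genes in the 17 libraries, as log2 of the level plus 1 (colour, from 0 to 10). Rows are genes, ordered within receptors, transducers and response genes by mean level, and columns are libraries by group and mouse number. Ifitm2, Ifi27 and Bst2 are present in every library, while the lowest rows from Isg20 to Oas1a are dark in all of them.

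The number of the 44 genes over 3 counts was 24 to 29 in GFP+ (median 25.5), 15 to 29 in ctrl periphery (median 25.0) and 13 to 29 in ctrl center (median 18.5). GFP+ and ctrl center overlapped through the ctrl center library of mouse 2 alone, at 29, the other 5 having 13 to 22, and ctrl periphery spanned most of both. Over all genes the numbers were 9536 to 10630 (median 9757), 8465 to 11084 (median 10526) and 6309 to 10928 (median 8190.5) in the same order of groups. The ctrl center library of mouse 1 had 10804 genes over 3 counts, more than any GFP+ library, but 20 of the 44. When every library was thinned to 9896118 counts, an alternative chosen after seeing the data, the medians were 25.5, 24 and 18. Ctrl center had the lowest median both of the 44 and of all genes, and the part of library quality in the former was not tested.

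**Figure D2:**
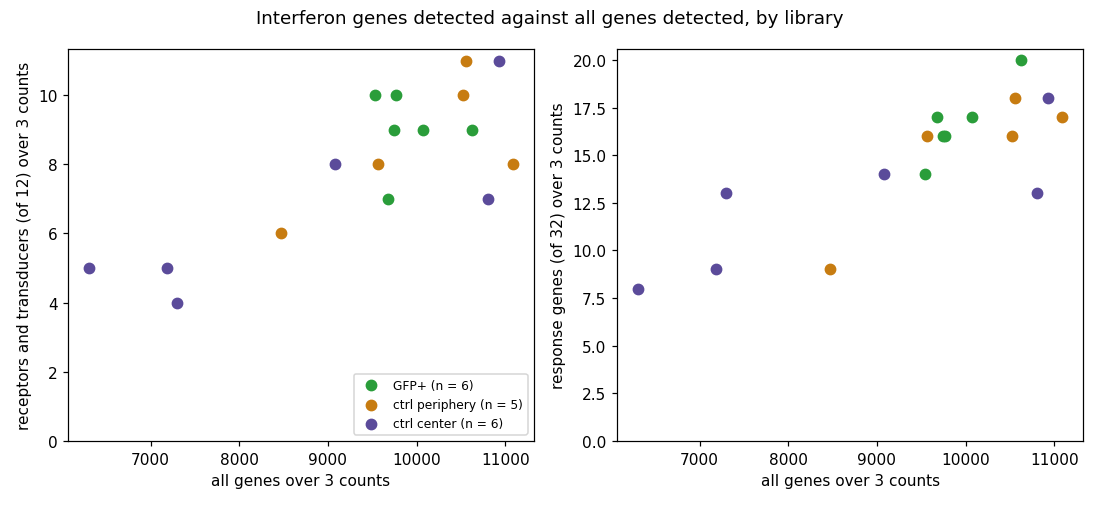
Receptors and transducers (left, of 12) and response genes (right, of 32) over 3 counts in each library, against all genes over 3 counts in that library. Points are libraries, coloured by group. The ctrl center library with the fewest genes, that of mouse 5, held 5 receptors and transducers and 8 response genes.

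In the comparisons, edgeR's quasi-likelihood test was run across all genes that passed a low-count filter, and calls required a p under 0.01 after Benjamini-Hochberg adjustment together with a log2 fold change beyond 1 in either direction. Of the 44 genes, 23 passed it in GFP+ against ctrl center, 26 in GFP+ against ctrl periphery and 22 in ctrl periphery against ctrl center. None was called in any comparison. Few genes were called at all, namely 0.0431% of 9286 in GFP+ against ctrl center, 0.0396% of 10102 in GFP+ against ctrl periphery and 0.00% of 9535 in ctrl periphery against ctrl center, so that 0 among the interferon genes is near the background. The lowest edgeR adjusted p of any of the 44 was 0.564, 0.556 and 1.00 in that order. At an unadjusted edgeR p under 0.05, 3 of 23 passed in GFP+ against ctrl center (5.80% of all genes did), 4 of 26 in GFP+ against ctrl periphery (5.58%) and 0 of 22 in ctrl periphery against ctrl center (2.70%). DESeq2, which called 1.21%, 0.406% and 0.169% of the genes it tested, called none of the 44 either. No gene of the 44 had group ranges that did not overlap, against 1.13%, 1.29% and 0.755% of all genes tested. An exact permutation test on mean log2(CPM + 1), which can give no p under 0.00216, left 0 of all genes at an adjusted p under 0.05. By its unadjusted p under 0.05, 4 of 43 of these genes passed in GFP+ against ctrl center (8.88% of all genes did), 6 of 43 in GFP+ against ctrl periphery (7.3%) and 2 of 41 in ctrl periphery against ctrl center (3.9%).

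The replicate spread limits what these tests could show. Standard errors of the log2 fold changes ran from 0.26 for Ifitm2 to 1.83 for Ifitm3 in GFP+ against ctrl center, so that for many genes a difference of several-fold lay within the spread between libraries. The following values are given as descriptions of that spread in CPM. For the 6 libraries of GFP+ and of ctrl center the lowest, the median and the highest value are given in that order, and for ctrl periphery the 5 values of mice 1, 2, 4, 5 and 7.

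**Figure D3:**
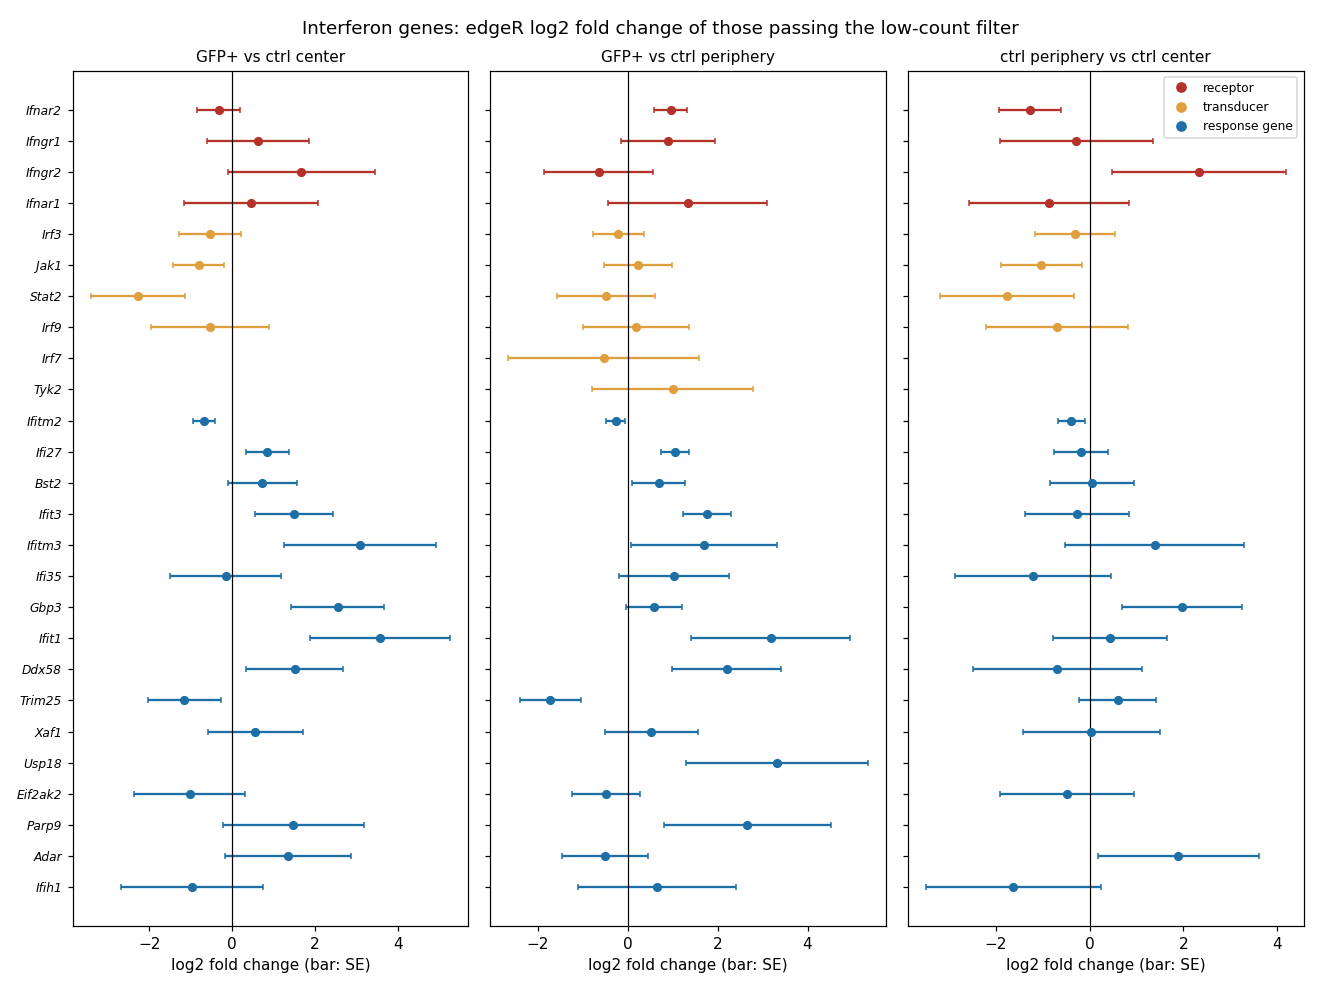
edgeR log2 fold changes with standard errors (bars) of the genes that passed the low-count filter, for GFP+ against ctrl center, GFP+ against ctrl periphery and ctrl periphery against ctrl center. A point right of 0 is higher in the group named first, and a gene with no point did not pass the filter in that comparison. None of the points passed the call limits.

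Receptors were present in all groups at unequal levels. Of the 4 genes, 3 lie near each other on chromosome 16, namely Ifnar2 (chr16:91372783-91405589), Ifnar1 (chr16:91485238-91507441) and Ifngr2 (chr16:91547072-91565623), while Ifngr1 is on chromosome 10 (chr10:19591949-19610229, all by GENCODE M21 on GRCm38).

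Ifnar2, the subunit that binds type I interferon first, lay at 45.1, 57.8 and 67.9 CPM in GFP+ and at 25, 42.8 and 240.3 CPM in ctrl center. The ctrl periphery libraries had 19.1, 57.1, 27.5, 28 and 21.9 CPM. GFP+ libraries were the most even, 4 of 5 ctrl periphery libraries lay under all of them, and the ctrl center library of mouse 4 stood far above the rest. GFP+ was higher than ctrl periphery in 5 of 5 mice with both. The log2 fold change against ctrl periphery was 0.95 (SE 0.37, edgeR adjusted p = 0.733), and the adjusted p ranged from 0.111 to 1.0 over the alternatives run. Against ctrl center it was -0.32 (SE 0.52), and ctrl periphery against ctrl center gave -1.27 (SE 0.67). The first of these turned to 0.49 without the ctrl center library of mouse 4. Ifnar2 shares 7.89% of its 50-base words with the overlapping gene model Gm21970, so that part of its reads is uncertain.

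Ifnar1, the partner subunit, was scarce, at 0, 3.35 and 11.6 CPM in GFP+ and 0, 2.19 and 9.73 CPM in ctrl center. The ctrl periphery values were 5.52, 2.80, 0.722, 0 and 0 CPM. Every group held libraries at or near 0, and the ranges overlapped. Per exon length it reached a mean of 1.22, against 31.1 for Ifnar2. The fold change of GFP+ over ctrl center was 0.45 (SE 1.61) on the log2 scale.

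Ifngr1, which binds interferon gamma, had 6.34, 15.6 and 21.2 CPM in GFP+, where no library was at 0. In ctrl center it had 0, 6.75 and 34.5 CPM and in ctrl periphery 11, 7.05, 18, 5.32 and 0 CPM. The highest value of all was the ctrl center library of mouse 4, as for Ifnar2. Its log2 fold change was 0.62 (SE 1.23) against ctrl center and 0.90 (SE 1.05) against ctrl periphery.

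Ifngr2, the second subunit of that receptor, was at 0, 6.15 and 18 CPM in GFP+ and 3.90, 1.19, 13.3, 31.4 and 10.1 CPM in ctrl periphery. In ctrl center it was at 0, 0.0998 and 13.8 CPM. All but 1 ctrl center library were under 0.4 CPM, and the exception, mouse 2, had as much as the peripheral cells. Ctrl periphery against ctrl center gave the highest log2 fold change of the 22 genes, 2.32 (SE 1.86, edgeR adjusted p = 1.0), and GFP+ against ctrl center gave 1.66 (SE 1.77), which became 5.97 without the ctrl center library of mouse 2 and 5.17 with the mouse as a block. GFP+ against ctrl periphery, at -0.64 (SE 1.22), was among the 3 lowest there.

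The transducers present everywhere were Jak1 and Irf3. Jak1, the kinase both receptor types use, had 8.54, 21.5 and 42.9 CPM in GFP+ and 18.4, 43.8 and 64.7 CPM in ctrl center. In ctrl periphery it had 19.2, 29, 33.5, 22.7 and 0.494 CPM. The ctrl center median was above that of either peripheral group, and the ranges overlapped. GFP+ against ctrl center gave -0.81 (SE 0.61) on the log2 scale.

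Irf3, which waits in the cytoplasm until a sensor activates it, had 12.9, 20.0 and 31.2 CPM in GFP+ and 5.17, 27.3 and 63.7 CPM in ctrl center. Ctrl periphery libraries had 29.1, 8.71, 29, 29.1 and 20.4 CPM. The 3 groups covered one another, with the ctrl center libraries the most spread. GFP+ over ctrl center gave a log2 fold change of -0.54 (SE 0.75). Reads of Irf3 may include some of Bcl2l12, which overlaps it on the other strand.

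Stat2, the STAT used by type I interferon, had 5.28, 9.37 and 12.5 CPM in GFP+, with all 6 libraries close together. In ctrl center it had 0, 12.9 and 137 CPM and in ctrl periphery 15.8, 7.0, 24.6, 14.1 and 0 CPM. The library of mouse 4 in ctrl center and of mouse 7 in ctrl periphery were at 0, and the highest 2 were the ctrl center libraries of mice 7 and 5. GFP+ against ctrl center was the lowest log2 fold change of the 23 genes at -2.29 (SE 1.13, edgeR adjusted p = 0.894), and ctrl periphery against ctrl center was the lowest of the 22 at -1.76 (SE 1.43). Without the 3 ctrl center libraries that had the fewest genes (mice 4, 5 and 7), chosen after seeing the data, the former was -0.42 and the latter 0.05. The former was -1.35 without the ctrl center library of mouse 7 alone.

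Irf7, which amplifies the response once interferon is made, was at 0, 0.453 and 16.6 CPM in GFP+. It was at 0, 9.74, 0, 0 and 16 CPM in ctrl periphery and 0, 0 and 1.70 CPM in ctrl center. It was over 3 counts in 6 libraries of the 17 and at 0 in 11. GFP+ against ctrl periphery gave -0.53 (SE 2.12). Tyk2, Socs1 and Irf1 were likewise over 3 counts in 6, 3 and 6 libraries, and Irf9 in 14.

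The response gene with the highest mean length-scaled level was Ifitm2. Ifitm2, an interferon-induced transmembrane protein that hinders viral entry, had 114, 183 and 220.1 CPM in GFP+ and 153, 268 and 413 CPM in ctrl center. Ctrl periphery had 268, 255, 190.0, 158 and 217 CPM. Over all 17 libraries it varied least of the 44, and 0 of 5 mice had more in GFP+ than in ctrl center. The log2 fold change was -0.68 (SE 0.26, edgeR adjusted p = 0.564), with an adjusted p of 0.197 to 1.0 over the alternatives, and -0.27 (SE 0.21) against ctrl periphery. The direction depended on the scale. The length-scaled level was 689.8 ± 62.3 (SD, n = 6) in GFP+, 656 ± 259 (SD, n = 5) in ctrl periphery and 542 ± 151 (SD, n = 6) in ctrl center. That level differs from CPM in the use of exon length as well as in having no TMM factor, and the part of each was not tested. Ifitm2 shares 48.5% of its 50-base words with other gene models, and its count is uncertain to that extent.

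Bst2 (tetherin), which holds budding virus at the cell surface, had 10.4, 47.1 and 132 CPM in GFP+ and 0.887, 28.8 and 109.7 CPM in ctrl center. In ctrl periphery it had 32.4, 17.6, 25.5, 82.2 and 42.2 CPM. Libraries of GFP+ differed by over 10-fold among themselves, as did those of ctrl center, and all groups overlapped. The log2 fold change of GFP+ was 0.72 (SE 0.84) against ctrl center and 0.69 (SE 0.59) against ctrl periphery.

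Ifitm3, the close relative of Ifitm2 on chromosome 7, was at 0, 7.81 and 126 CPM in GFP+ and 0, 1.04 and 12 CPM in ctrl center. Its values in ctrl periphery were 0.390, 5.34, 0.481, 38.4 and 0.0989 CPM. Each group held libraries at or near 0 beside libraries with clear signal, and the GFP+ library of mouse 3 was the highest. GFP+ over ctrl center was 3.08 (SE 1.83) on the log2 scale. It came down to 0.05 with the mouse as a block, where the median of all genes was 0.57.

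Ifi27, a small membrane protein, had 143, 240.1 and 416 CPM in GFP+. It had 167, 138, 150.1, 109.7 and 57.1 CPM in ctrl periphery and 10.3, 114 and 299 CPM in ctrl center. All 6 GFP+ libraries were above 140 CPM, 3 of 5 ctrl periphery libraries were under that, and ctrl center spread from the lowest value of all to the GFP+ range. Against ctrl periphery GFP+ was higher in 4 of 5 mice, at a log2 fold change of 1.05 (SE 0.30, edgeR adjusted p = 0.556). Its unadjusted edgeR p of 0.00332 was the lowest of the 26 genes, and the adjusted p ran from 0.0891 to 1.0 over the alternatives. Against ctrl center the log2 fold change was 0.85 (SE 0.52). Among mice 1 to 3, whose animal numbers form the first of the 2 runs in the labels, the means were 263 in GFP+ and 153 CPM in ctrl periphery, and among mice 4 to 7 they were 246 and 106 CPM.

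The IFIT genes, whose products bind foreign RNA, lie together on chromosome 19. Ifit3 (chr19:34583531-34588731), which was picked for full values after they had been seen, had 38.3, 128 and 259 CPM in GFP+. It had 28.4, 17.8, 16.3, 91 and 53.4 CPM in ctrl periphery and 0, 29.1 and 165 CPM in ctrl center. GFP+ was higher than ctrl periphery in 5 of 5 mice and higher than ctrl center in 4 of 5, though single libraries of the groups overlapped. Its log2 fold change was 1.76 (SE 0.54, edgeR adjusted p = 0.584) against ctrl periphery, where the adjusted p ran from 0.116 to 1.0 over the alternatives, and 1.49 (SE 0.94) against ctrl center. The first run of animals had means of 155 in GFP+ and 23.1 CPM in ctrl periphery, and the second had 130.1 and 53.6 CPM. Ifit3 shares 51.2% of its 50-base words with Ifit3b, its near-identical neighbour. With the counts of both summed, an alternative chosen after seeing the data, the medians were 203.4, 62.6 and 40.1 CPM in GFP+, ctrl periphery and ctrl center, and the log2 fold change against ctrl periphery was 1.61 (SE 0.43, edgeR adjusted p = 0.429).

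Ifit1 behaved otherwise, since 1 library carried most of it. It had 0, 1.67 and 94.6 CPM in GFP+ and 0.375, 0.898 and 4.07 CPM in ctrl center. Ctrl periphery had 0.167, 0.466, 8.57, 1.91 and 0.198 CPM. The GFP+ library of mouse 1 held 66.1% of the summed level over all 17 libraries, and 3 of 6 GFP+ libraries were under 0.4 CPM. Its log2 fold change was the highest of the 23 genes against ctrl center, 3.57 (SE 1.69, edgeR adjusted p = 0.856), and 3.18 (SE 1.77) against ctrl periphery. Both turned below 0 once mouse or run of animal numbers entered the model. In the second run GFP+ had a mean of 0.164 CPM, ctrl periphery 3.56 CPM and ctrl center 1.56 CPM.

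**Figure D4:**
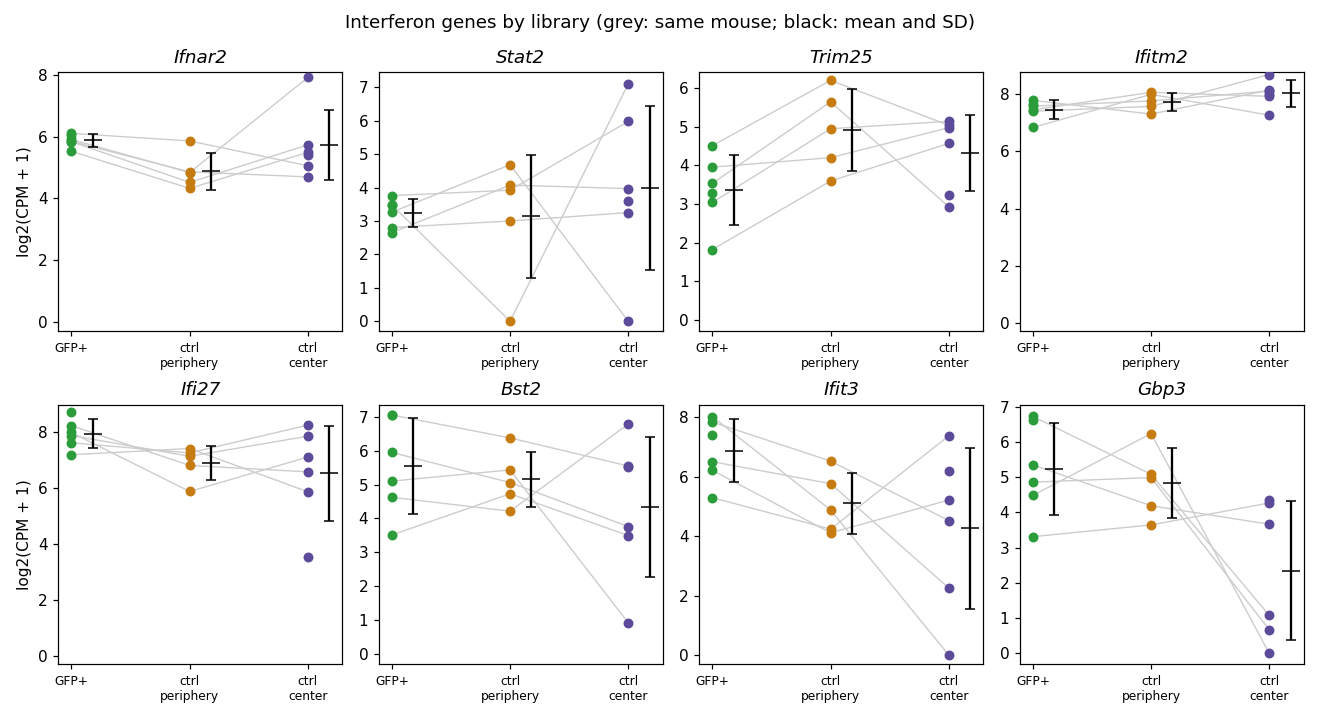
log2(CPM + 1) of Ifnar2, Stat2, Trim25, Ifitm2, Ifi27, Bst2, Ifit3 and Gbp3 in each library (points), with the libraries of 1 mouse joined by grey lines and the mean and SD of each group in black. The GFP+ points of Ifi27 and Ifit3 lie closer together than the ctrl center points, which reach from under the GFP+ range into it, and the groups overlap in all panels.

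Gbp3, a guanylate-binding GTPase of defence inside the cell, had 8.92, 33.8 and 104 CPM in GFP+. It had 30.7, 11.5, 17.2, 32.8 and 74.3 CPM in ctrl periphery and 0, 6.39 and 19.6 CPM in ctrl center. In ctrl center 3 libraries were under 1.2 CPM and the other 3 reached the range of the peripheral ones. GFP+ over ctrl center was 2.54 (SE 1.12, edgeR adjusted p = 0.760) on the log2 scale, with an adjusted p of 0.186 to 1.0 over the alternatives. Ctrl periphery over ctrl center was 1.97 (SE 1.28). Its relative Gbp2 had no library over 3 counts.

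Trim25, a ubiquitin ligase that helps RIG-I to signal, stood on the other side. It had 2.53, 9.68 and 21.8 CPM in GFP+ and 6.58, 26.6 and 34.2 CPM in ctrl center. Ctrl periphery had 29.9, 17.4, 49, 72.6 and 11.1 CPM. GFP+ was lower than ctrl periphery in 5 of 5 mice, and the ranges overlapped. The log2 fold change was -1.72 (SE 0.68, edgeR adjusted p = 0.769), with an adjusted p of 0.171 to 1.0 over the alternatives, and -1.15 (SE 0.89) against ctrl center.

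Usp18, which removes ISG15 from proteins, appeared in some libraries and not in others. Its values were 0, 9.84 and 61.5 CPM in GFP+ and 0, 0 and 10.4 CPM in ctrl center. Ctrl periphery had 0.334, 0, 3.23, 5.56 and 0 CPM. It was listed at 0 in 9 libraries, and the 3 highest were the GFP+ libraries of mice 1, 3 and 5. GFP+ over ctrl periphery was the highest log2 fold change of the 26 genes at 3.32 (SE 2.02, edgeR adjusted p = 1.0).

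Parp9, an ADP-ribosyltransferase family member that pairs with DTX3L, had 0.133, 12.5 and 29.3 CPM in GFP+. It had 10.4, 0, 0.0481, 0 and 0 CPM in ctrl periphery and 0, 0.277 and 17.8 CPM in ctrl center. Among ctrl periphery libraries only mouse 1 had signal. GFP+ over ctrl periphery was 2.66 (SE 1.86) on the log2 scale. Parp9 and Dtx3l overlap on opposite strands, and the strand setting of the counting is not given in the sources used here.

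Among RNA sensors and RNA-acting enzymes, Adar, which edits adenosine in double-stranded RNA, had 1.34, 11.3 and 18.7 CPM in GFP+ and 0, 0.326 and 22.8 CPM in ctrl center. Ctrl periphery had 1.0, 9.74, 18.9, 3.10 and 51.4 CPM. Ctrl center held 4 libraries under 0.5 CPM and GFP+ none. Ctrl periphery over ctrl center was 1.90 (SE 1.72) on the log2 scale.

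Eif2ak2 (PKR), a kinase that stops translation when it binds double-stranded RNA, had 5.42, 11.8 and 21.4 CPM in GFP+ and 0.111, 6.64 and 97.4 CPM in ctrl center. Ctrl periphery had 13.4, 21.1, 37.2, 10.0 and 4.94 CPM. The ctrl center library of mouse 5 was the highest of the 17, and the other central libraries were near 0 or within the peripheral range. GFP+ over ctrl center, -1.03 (SE 1.33) on the log2 scale, was 0.99 without that library.

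Ifih1 (MDA5), the sensor of long RNA, had 0, 5.60 and 25.8 CPM in GFP+ and 0, 12.5 and 37.4 CPM in ctrl center. Ctrl periphery had 8.14, 0.311, 18.7, 0.397 and 0 CPM. Some libraries of every group were at 0 or under 0.4 CPM. Ctrl periphery against ctrl center gave -1.63 (SE 1.87) on the log2 scale. Of the remaining members of this kind, Ddx58 was over 3 counts in 13 libraries, while Oas1a, Oas2, Oas3 and Oasl2 were listed at or near 0.

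The response genes not given in full covered the whole span of presence. Ifi35 and Xaf1, the latter a partner of apoptosis inhibitors, were over 3 counts in 14 libraries each, and Dtx3l, the ubiquitin ligase that pairs with PARP9, in 9. Ifitm1 was over 3 counts in 5 libraries, Ifit2 in 4, and Mx2 and Parp14 in 3 each. Mx2 is annotated as a polymorphic pseudogene. Ifi44 was seen nearly only in the GFP+ library of mouse 2, at 7.40 CPM.

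Receptors and transducers were then set beside the response genes, though the ISRE letters also stood in front of the transducers Stat2 and Socs1. In GFP+ against ctrl center the median log2 fold change was 0.85 over the 15 response genes that passed the filter (10 higher, 5 lower), −0.43 over the 8 receptors and transducers (3 higher, 5 lower) and 0.00 over all genes tested. The 4 receptors had a median of 0.53 and the 4 transducers −0.68, all 4 of the latter being lower in this fit. On the length-scaled level 3 of those 4 were not, with means of 8.66 in GFP+ and 8.51 in ctrl center for Jak1, 15.2 and 12.7 for Irf3, and 5.20 and 4.48 for Irf9. In GFP+ against ctrl periphery the median was 0.86 over 16 response genes (12 higher, 4 lower), 0.21 over 10 receptors and transducers (6 higher, 4 lower) and 0.01 over all genes. In ctrl periphery against ctrl center it was −0.07 over 14 response genes (7 higher, 7 lower), −0.78 over 8 receptors and transducers (1 higher, 7 lower) and 0.01 over all genes. Over all genes tested, 50.1%, 50.8% and 50.4% were higher in the 3 comparisons. The 2 comparisons of GFP+ share its libraries, and genes that passed the filter are not all members of their class. Usp18 passed only in GFP+ against ctrl periphery (3.32) and Parp9 only in the 2 comparisons of GFP+ (1.47 against ctrl center, 2.66 against ctrl periphery). Both count among the higher genes and in these medians, and their passing rests in part on the GFP+ libraries. Tyk2 (1.00) and Irf7 (−0.53) likewise passed only in GFP+ against ctrl periphery. With DESeq2 and without the low-count filter, where all 12 receptors and transducers were tested, their median in GFP+ against ctrl center minus that of all genes turned to 0.79 and 0.61. With all 3 groups in the fit, where 11 of them were tested, it turned to 0.17. These medians are descriptions without a test, to be read beside the spread between libraries of 1 group. The pooled SD of the library median of log2(CPM + 1) was 1.21, 0.667 and 1.01 for response genes and 0.873, 0.650 and 1.09 for receptors and transducers in the 3 comparisons in the same order.

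By summed length-scaled level, the 32 response genes came to 1280 to 2703 in GFP+ (median 1625), 764.2 to 1535 in ctrl periphery (median 968.1) and 413.8 to 1435 in ctrl center (median 858.5). The GFP+ libraries were the higher ones, with overlap, and Ifitm2, Ifi27, Bst2 and Ifit3 made up most of the sum. Receptors and transducers summed to 77.3 to 144.0, 35.1 to 79.9 and 16.4 to 100.7 in the same order. In CPM, with TMM scaling, the median of their sum was 162.8 in GFP+, under the 195.5 of ctrl center and over the 127.4 of ctrl periphery. The response genes summed to 519.9 to 1340 CPM in GFP+ (median 834.8). Their sums were 532.7 to 628.6 CPM in ctrl periphery (median 623) and 461.8 to 923.8 CPM in ctrl center (median 574.2). The length-scaled level divides by the sum over the whole library, with no TMM factor and with mitochondrial genes included. The share of mitochondrial counts had a median of 8.57% in GFP+, 17.7% in ctrl periphery and 27.3% in ctrl center. The part of mitochondrial counts in these sums was not tested.

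Other genes of the pathway were read from a list of 52 that were not among the 44 (ligands, transcription factors, sensors, adaptors and response genes). Of these, 24, 27 and 26 passed the filter in GFP+ against ctrl center, GFP+ against ctrl periphery and ctrl periphery against ctrl center, and 0 was called in any. They were higher in 13 and lower in 11, higher in 16 and lower in 11, and higher in 14 and lower in 12, with median log2 fold changes of 0.49, 0.53 and 0.05. At an unadjusted edgeR p under 0.05, 2 of 24, 3 of 27 and 0 of 26 passed, while 5.80%, 5.58% and 2.70% of all genes did. The few that passed were higher in GFP+, and counts this small are given as descriptions. In this list 7 genes were over 3 counts in no library.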

How the data were processed

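The 17 libraries were SMART-Seq libraries of polyadenylated RNA from hand-picked RPE cells. The authors deposited estimated counts per gene symbol as whole numbers, without normalization. The submitters' processing notes name fastp, Salmon and GRCm38.p6. The annotation, the strand setting and the scaling of the estimates are not given in the sources used here, and reads of overlapping or near-identical genes may be split in ways that cannot be traced. All 17 columns were matched to samples by name and 0 were left unused. Library totals ran from 9896118 to 22467079. A count of 3 was taken as the floor, which covers counting error only, since no molecular identifiers are described.

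Groups were compared in R 4.3.3 by the quasi-likelihood test of edgeR 4.0.16 after its standard low-count filter and TMM scaling, each fit holding just the 2 groups at issue, with limits of an adjusted p of 0.01 and an absolute log2 fold change of 1. The study names DESeq2, which was run as an alternative (version 1.42.0), as were RLE size factors, no filter, a joint fit of the 3 groups, a block for mouse, a covariate for the run of animal numbers (mice 1 to 3 against 4 to 7), the 13 mitochondrial genes left out, an adjusted p of 0.05 with no fold limit, and each library left out in turn. A two-sided exact permutation test used log2(CPM + 1), with pseudocounts of 0.1 and 10 as alternatives. CPM were scaled by TMM over all 17 libraries. The length-scaled level divided counts by the exon length of GENCODE M21 on GRCm38 and scaled each library to the same sum. Shared sequence was counted as words of 50 bases among GENCODE transcripts. The procedure was tested on simulated data. Figures were drawn with matplotlib in Python.

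Libraries of 1 mouse come from the same animal by their labels, which pairs them. Over 15 such pairs and 11100 genes, the correlation of their deviations from the group means ran from −0.0212 to 0.0939. No library was a copy of another, the highest correlation of log2(count + 1) over 136 pairs being 0.913. The labels do not say whether a group's libraries differ in more than the animal, so p-values measure the spread between these libraries.

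The 44 genes and the gene lists were chosen with earlier results of these data known. Values by group (each library in ctrl periphery; lowest, median and highest in GFP+ and ctrl center) are given for the 4 receptors, for the 3 genes of each class with the highest mean length-scaled level, and for the 3 highest and 3 lowest log2 fold changes of each comparison. Ifit3 was added after its values were seen.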

Additional observations from a re-analysis of the deposited data

Results flagged for a closer look

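Dixon's 95% limit for an outlying library assumes normal values. Most genes were picked by level or fold change in these data, so no chance rate is set beside the count. Within groups of 5 or 6 libraries, 8 of 72 sets of values had 1 library whose gap to its nearest neighbour exceeded that limit. In GFP+ these were Adar in mouse 7 at 1.34 CPM, below the others, and Ifngr2 in mouse 2 at 0 CPM. In ctrl periphery they were Jak1 in mouse 7 at 0.494 CPM, below the others, and Parp9 in mouse 1 at 10.4 CPM, above them. In ctrl center the library of mouse 4 was high for Ifnar2 at 240.3 CPM. The ctrl center library of mouse 2 was high for 3 genes, namely Ifngr2 at 13.8 CPM, Irf7 at 1.70 CPM and Usp18 at 10.4 CPM, and it was the central library with the most genes at 10 counts or more.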

How the results depend on the processing

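None of the 44 genes was called under any of the alternatives run, the replicate block by mouse included. The exact permutation test, which can give no p under 0.00216, left 0 of all genes at an adjusted p under 0.05 with each pseudocount. Its 0 among the 44 therefore says nothing about these genes. The value without the filter or with DESeq2 differed for the median log2 fold change of receptors and transducers minus that of all genes, which was −0.43 in GFP+ against ctrl center and became 0.79 with DESeq2 and 0.61 with no filter. The joint fit of the 3 groups also turned it above 0, to 0.17. In GFP+ against ctrl periphery it was 0.20 and became 0.85 with the mouse as a replicate block. That block also moved the median of all genes to 0.57, 0.07 and 0.49 in GFP+ against ctrl center, GFP+ against ctrl periphery and ctrl periphery against ctrl center, so class medians are given relative to it. For response genes the difference stayed above 0 in both comparisons of GFP+, from 0.32 to 1.36 against ctrl center and from 0.32 to 1.09 against ctrl periphery.

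Of 33 log2 fold changes followed through the alternatives, 9 changed sign at least once. With the replicate block by mouse, GFP+ against ctrl center gave 1.56 for Eif2ak2, −1.02 for Ifit1, 0.02 for Ifnar2 and 0.21 for Irf3. GFP+ against ctrl periphery gave 1.48 for Irf7 and −0.25 for Ifit1. These single-gene values are not relative to the median of all genes, which that block moved to 0.57 and 0.07. The values of Ifnar2 and Irf3 turned above 0 but stayed under that 0.57. With a covariate for the run of animal numbers, Ifit1 was −1.10 against ctrl center and −1.78 against ctrl periphery. Without the ctrl center libraries of mice 4, 5 and 7, chosen after seeing the data, Eif2ak2 was 0.29, Ifnar1 −0.25 and Ifnar2 0.55 in GFP+ against ctrl center, and Stat2 was 0.05 in ctrl periphery against ctrl center. Leaving out 1 library at a time gave −1.30 to 0.99 for Eif2ak2, −0.07 to 1.16 for Ifnar1 and −0.49 to 0.49 for Ifnar2 in GFP+ against ctrl center, and −1.08 to 0.16 for Ifngr2 and −0.86 to 0.53 for Irf7 in GFP+ against ctrl periphery. The cause was not tested in any of these. At these depths a gene at or under 3 counts was not shown to be absent, and standard errors of up to 2.12 on the log2 scale left differences of that size undetectable.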
